A study of Mus musculus with 6 samples.

Results

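The genes described here encode acute-phase plasma proteins other than the serum amyloids and fibrinogens. They are the orosomucoids Orm1, Orm2 and Orm3, the haemoglobin scavenger Hp and the haem scavenger Hpx, the pentraxins Crp and Apcs, the lipopolysaccharide-binding proteins Lbp and Cd14, and the copper protein Cp. The 10 genes were fixed as a list and matched by gene identifier among the 55450 genes counted, and all 10 had enough counts to be tested. Their levels were measured by bulk RNA-Seq of isolated hepatocytes. There were 3 libraries of undamaged liver, called 0 h, and 3 of liver collected 48 hours after partial hepatectomy (PHx), an operation in which the larger lobes are cut away and the remainder regrows. The mice were C57BL/6 per the labels and C57BL/6J in the study's methods, adult males per those methods and 10 to 12 weeks old per the labels, and were kept on normal diet. Each library came from a separate preparation, and the cells were isolated by collagenase perfusion of the liver. No sham-operated group was analysed here, so the operation and the loss of tissue cannot be told apart as sources of a difference.

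Acute-phase proteins are secreted into plasma, most of them by hepatocytes, and their production changes within hours of injury or infection. Interleukin-6 acts through its receptor, the shared subunit gp130 and the transcription factor STAT3, while interleukin-1 acts through NF-kB, and C/EBP factors act with both on the promoters of these genes. Proteins whose plasma level rises are called positive and those whose level falls, such as albumin, negative acute-phase proteins. The mouse differs from humans in that Apcs (serum amyloid P component), and not Crp (C-reactive protein), is its strongly induced pentraxin.

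The 0 h libraries held between 31419443 and 36346220 gene counts and the 48 h libraries between 31684152 and 33093006. Levels are given as counts scaled to a library of fixed size (CPM) after TMM normalization, a scaling that balances the composition of the libraries, and as mean ± SD with n = 3 per time. The smallest level taken as detected, 3 counts, corresponds to 0.0825 to 0.0955 CPM. Differences are log2 fold changes of 48 h against 0 h from edgeR's quasi-likelihood test over 17037 genes, called at a Benjamini-Hochberg adjusted p under 0.05. Hepatocyte markers were measured as 16 genes, whose summed level was 126290.0 to 146369.4 CPM at 0 h and 85927.0 to 106171.6 CPM at 48 h. Of these, Fgb is also on the list of other positive acute-phase genes used below. Alb, Apoa1, Ttr, Trf and Ahsg are also on the list of negative ones. The sum therefore carries changes of acute-phase genes and is no independent check of hepatocyte identity.

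Orm1, Orm2 and Orm3 lie side by side on the plus strand of mouse chromosome 4 (GRCm38), at chr4:63344560-63348163, chr4:63362449-63365878 and chr4:63356162-63359511, each with 6 exons. Their coding sequences were 89.9% identical between Orm1 and Orm2, 88% between Orm2 and Orm3 and 86.1% between Orm1 and Orm3. The first 66 coding bases of the 3 genes, at chr4:63344598-63344663, chr4:63362487-63362552 and chr4:63356200-63356265, are shown because the reads of this family have to be told apart by such differences, and capitals mark the 13 positions at which the genes differ:
Orm1: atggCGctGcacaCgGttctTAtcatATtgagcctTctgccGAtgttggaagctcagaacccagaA
Orm2: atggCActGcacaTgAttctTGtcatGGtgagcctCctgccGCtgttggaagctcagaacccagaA
Orm3: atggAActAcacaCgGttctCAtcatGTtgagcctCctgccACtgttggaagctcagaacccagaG
Of all stretches of 50 bases in the annotated transcript, 20.4% in Orm1, 21.8% in Orm2 and 3.59% in Orm3 also occur in another gene of the family. At a length of 100 bases these shares were 6.95%, 6.95% and 0%.

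RefSeq promoter sequence of GRCm38.p6 was used for 6 of the 10 genes, and was searched over the 250 bases before the start site on both strands. The motifs were TTCNNNGAA for STAT factors, TTNNGNAA (TTNCNNAA on the other strand) for C/EBP factors and GGANNTTCC (GGAANNTCC on the other strand) for NF-kB, which occur in 7.02%, 36.8% and 3.59% of 32851 promoters of that length. The promoters of Orm2, Orm3, Crp and Apcs are shown because they stand before paralogs whose levels changed unequally, and capitals mark the matches. They lie at chr4:63362199-63362448 on the plus strand, chr4:63355908-63356157 on the plus strand, chr1:172697806-172698055 on the plus strand and chr1:172895055-172895304 on the minus strand:
Orm2: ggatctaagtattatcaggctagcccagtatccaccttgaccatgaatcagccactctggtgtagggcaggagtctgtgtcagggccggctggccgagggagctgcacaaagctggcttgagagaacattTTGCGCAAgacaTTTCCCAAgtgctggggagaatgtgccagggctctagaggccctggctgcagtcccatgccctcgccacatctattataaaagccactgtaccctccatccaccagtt
Orm3: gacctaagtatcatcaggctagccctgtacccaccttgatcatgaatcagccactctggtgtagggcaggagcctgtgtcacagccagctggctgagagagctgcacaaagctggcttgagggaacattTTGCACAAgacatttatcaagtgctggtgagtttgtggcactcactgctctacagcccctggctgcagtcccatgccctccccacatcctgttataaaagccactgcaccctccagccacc
Crp: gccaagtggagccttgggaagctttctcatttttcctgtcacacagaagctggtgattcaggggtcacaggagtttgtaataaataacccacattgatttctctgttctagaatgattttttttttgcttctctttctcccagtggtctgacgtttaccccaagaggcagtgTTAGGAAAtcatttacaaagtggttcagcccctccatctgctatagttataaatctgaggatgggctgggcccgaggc
Apcs: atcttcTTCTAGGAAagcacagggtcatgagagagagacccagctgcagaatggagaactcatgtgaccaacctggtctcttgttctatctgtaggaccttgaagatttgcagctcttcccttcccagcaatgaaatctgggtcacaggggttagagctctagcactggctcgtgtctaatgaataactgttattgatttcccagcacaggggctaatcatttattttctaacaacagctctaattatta
The promoters of Orm2 and Orm3 were 85.5% identical. Orm2 held 2 C/EBP matches, TTGCGCAA at 120 and TTTCCCAA at 108 bases before the start site, and Orm3 held 1, TTGCACAA at 121 bases. Crp held the C/EBP match TTAGGAAA at 78 bases, and Apcs held the STAT match TTCTAGGAA at 244 bases. C/EBP letters also matched at 200 and 73 bases in the Hpx promoter, and at 206 and 70 bases in the 2 Cp promoters. None of these windows held the NF-kB letters. A match is only a run of letters, and no binding was measured here.

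Of the 10 genes, 7 rose after PHx (Orm1, Orm2, Orm3, Hp, Hpx, Apcs and Cp), 1 fell (Crp) and 2 did not pass the test (Lbp and Cd14). Among all genes tested, 21.4% were called higher and 19.3% lower (3638 and 3288 genes, or 5308 and 2110 with scaling by library size only). The median log2 fold change of the 10 genes was 1.94, against -0.00 over all genes tested. In 7 of the 10 genes every 48 h library lay above every 0 h library, an arrangement found in 27.8% of all genes tested. In Crp every 48 h library lay below every 0 h library, which was found in 25.0% of all genes tested. The p-values measure the spread between the 3 preparations of each time. As in any bulk measurement, more RNA of a gene per cell and more cells that make it cannot be told apart.

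**Figure D1:**
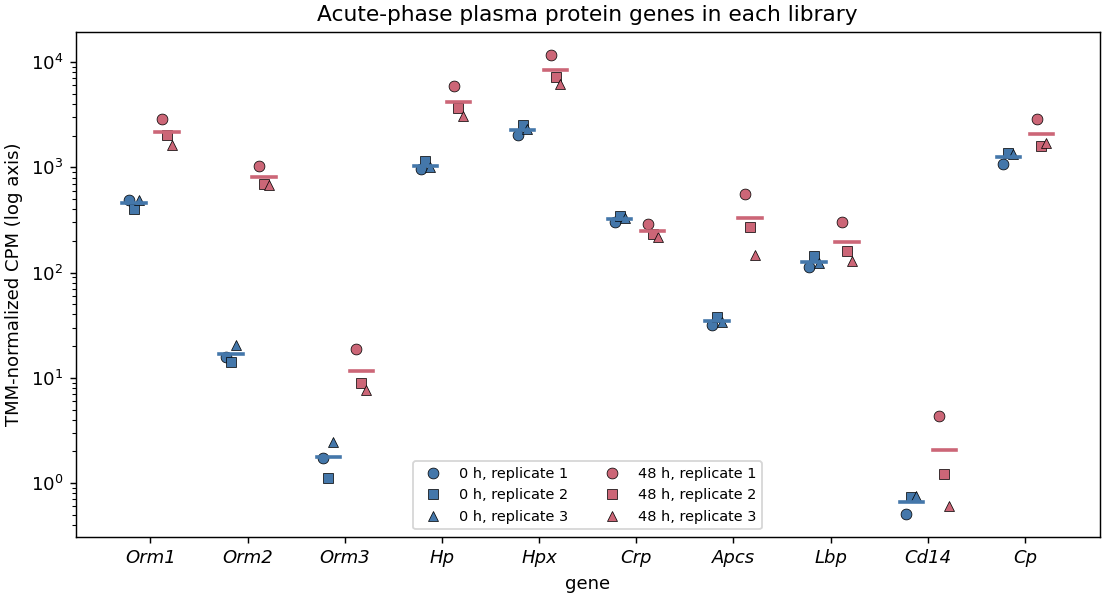
TMM-normalized CPM on a log axis for each of the 10 genes in the 3 libraries at 0 h (blue) and the 3 at 48 h (red); marker shapes give the replicate and horizontal lines the group mean. The 2 times do not overlap for 8 of the 10 genes and overlap for Lbp and Cd14, and the circle of 48 h replicate 1 is the highest 48 h point of all 10 genes.

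Orosomucoids, also called alpha-1-acid glycoproteins, are lipocalin carriers of drugs and steroids in plasma. Orm1, the main form in undamaged liver, measured 484.3, 400.3 and 485.8 CPM in replicates 1 to 3 at 0 h and 2904.6, 2033.7 and 1616.8 CPM at 48 h. Every 48 h library lay above every 0 h library, and the means were 456.8 ± 49 and 2185.0 ± 657.1 CPM. Orm1 rose 4.78-fold (log2 fold change 2.26, SE 0.218, edgeR adjusted p = 2.47e-05).

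Orm2 was at 15.7, 14.3 and 20.5 CPM at 0 h and at 1024.7, 692.7 and 685.2 CPM at 48 h. It passed from a low level to one above that of Orm1 in undamaged liver, with means of 16.9 ± 3.27 and 800.9 ± 193.9 CPM. The rise was 47.5-fold (log2 fold change 5.57, SE 0.234, edgeR adjusted p = 7.61e-08), and 0.587% of all genes tested rose by more. Orm2 had the largest fold of the 10 genes under all 16 alternative settings tried, at a log2 fold change of 5.35 to 5.76.

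Orm3 was the least abundant of the family, with 51, 35 and 82 counts at 0 h and 628, 319 and 268 counts at 48 h. These counts correspond to 1.74, 1.13 and 2.47 CPM at 0 h and to 18.6, 8.92 and 7.65 CPM at 48 h. Orm3 rose by a log2 fold change of 2.71 (SE 0.373, edgeR adjusted p = 0.000261), from a mean of 1.78 ± 0.672 to 11.7 ± 6.01 CPM, without overlap between the times.

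Because reads of near-identical paralogs can be moved from one to another by counting, the family was also summed, which does not depend on how counted reads were split. Reads discarded because they matched several of the genes would still be missing from the sum. The sum of the 3 genes was 501.7, 415.7 and 508.8 CPM at 0 h and 3948.0, 2735.4 and 2309.7 CPM at 48 h, so that each 48 h library lay above each 0 h library. The sum was 6.17-fold higher at 48 h (log2 difference 2.63, exact permutation p = 0.1, two-sided). No smaller p than 0.1 can be had from 3 against 3 libraries. Orm2 took 3.13, 3.44 and 4.04% of the family's counts at 0 h and 26.0, 25.3 and 29.7% at 48 h. Its mean share went from 3.54 ± 0.459% to 27.0 ± 2.35%, while that of Orm1 went from 96.1 ± 0.547% to 72.6 ± 2.32%. Orm3 took 0.368 ± 0.109% and 0.377 ± 0.0829%, at 0 h and 48 h. The ratio of Orm2 to Orm1 within a library, which does not depend on the scaling between libraries, was 10.1-fold higher at 48 h (log2 difference 3.34, exact permutation p = 0.1, adjusted p = 0.167 over 5 pairs compared). The ratio of Orm3 to Orm1 differed by 0.45 on the log2 scale, with overlapping values (exact permutation p = 0.3, adjusted p = 0.3).

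**Figure D2:**
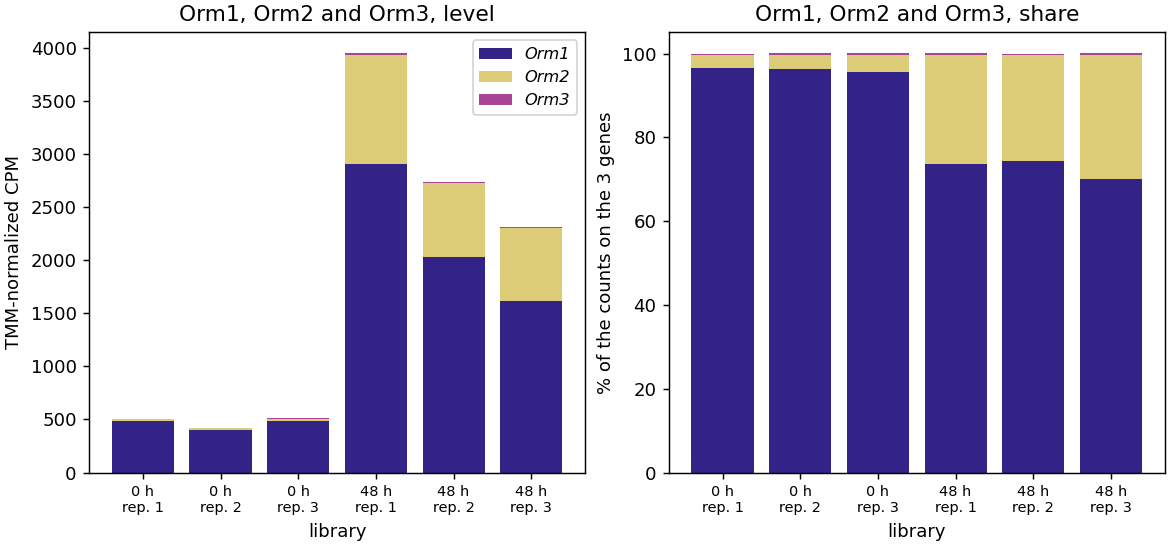
Stacked bars for each of the 6 libraries showing, left, the TMM-normalized CPM of Orm1, Orm2 and Orm3 and, right, the percent of the counts on these 3 genes that each took. The sums lie at 415.7 to 508.8 CPM at 0 h and at 2309.7 to 3948.0 CPM at 48 h, and the Orm2 share lies at 3.13 to 4.04% and at 25.3 to 29.7%.

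Haptoglobin and hemopexin scavenge the products of haemolysis. Hp, which binds free haemoglobin and lies at chr8:109575128-109579172, measured 973.6, 1136.6 and 1003.6 CPM at 0 h and 5909.2, 3667.7 and 3054.4 CPM at 48 h. All 48 h libraries were above all 0 h libraries. The mean rose from 1037.9 ± 86.7 to 4210.4 ± 1502.8 CPM, or 4.06-fold (log2 fold change 2.02, SE 0.239, edgeR adjusted p = 9.95e-05).

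Hpx, which binds free haem and lies at chr7:105591613-105600137, was at 2042.7, 2516.6 and 2290.0 CPM at 0 h and at 11633.7, 7161.8 and 6216.9 CPM at 48 h. Here too the times did not overlap. Hpx rose 3.65-fold, from 2283.1 ± 237.0 to 8337.5 ± 2893.5 CPM (log2 fold change 1.87, SE 0.242, edgeR adjusted p = 0.000175). The proportion of the 2 scavengers moved far less than their levels, since the log2 ratio of Hp to Hpx counts was -1.07, -1.15 and -1.19 at 0 h and -0.98, -0.97 and -1.03 at 48 h. This ratio was 1.11-fold higher at 48 h without overlap (log2 difference 0.15, exact permutation p = 0.1, adjusted p = 0.167).

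Among 11 other genes of haem handling, most of them of haem and haemoglobin clearance, 4 rose and 7 did not pass the test, with a median log2 fold change of 0.43, beside 21.4% called higher among all genes. With scaling by library size only 7 rose, with a limit of 1 on the absolute log2 fold change 1 rose, and under DESeq2, limma-voom, the upper quartile and TMM factors from protein-coding genes 1 fell. Those that rose were Hmox1, which breaks down haem, at 6.57 ± 1.2 and 15.0 ± 0.446 CPM (log2 fold change 1.19), Alas1, which starts haem synthesis and not its clearance (0.64), Cd163, the macrophage receptor for haptoglobin bound to haemoglobin (0.64), and Slc48a1, a haem transporter (0.43). Lrp1, the receptor for hemopexin bound to haem, was at 3399.9 ± 297.0 and 2633.7 ± 170.1 CPM (log2 fold change -0.37, SE 0.151, edgeR adjusted p = 0.0748).

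The pentraxins Crp and Apcs are ring-shaped proteins that bind microbial surfaces and damaged cells, and they lie in the same region of chromosome 1, at chr1:172698055-172833031 and chr1:172893961-172895041. Their coding sequences were 58.3% identical, and their levels moved in opposite directions. Apcs was at 31.8, 38.2 and 33.6 CPM at 0 h and at 564.3, 273.3 and 146.9 CPM at 48 h. All 48 h libraries were above all 0 h libraries, but the 48 h values spanned a 3.84-fold range. Apcs rose 9.51-fold, from 34.5 ± 3.3 to 328.2 ± 214.1 CPM (log2 fold change 3.25, SE 0.399, edgeR adjusted p = 0.000128).

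Crp measured 302.0, 343.2 and 333.6 CPM at 0 h and 289.5, 231.6 and 217.7 CPM at 48 h. The highest 48 h library lay just under the lowest 0 h library. The mean fell from 326.3 ± 21.5 to 246.3 ± 38.1 CPM, a ratio of 0.755 (log2 fold change -0.41, SE 0.139, edgeR adjusted p = 0.039). The fall was called under 8 of the 16 alternative settings. With scaling by library size only, which places the median gene at a log2 fold change of 0.199, it was -0.21 at an edgeR adjusted p of 0.221. Leaving out 48 h replicate 2 or 3 also ended the call (edgeR adjusted p = 0.14 and 0.133), as did leaving out any 0 h replicate (0.0517 to 0.0947). Within a library, the log2 ratio of Apcs to Crp counts was -3.25, -3.17 and -3.31 at 0 h and 0.96, 0.24 and -0.57 at 48 h. It was 11.0-fold higher at 48 h (log2 difference 3.45, exact permutation p = 0.1, adjusted p = 0.167).

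Lbp and Cd14 hand lipopolysaccharide of bacteria on to Tlr4 and its partner Ly96, Lbp as a plasma protein of hepatocytes and Cd14 as a surface or soluble receptor that macrophages also make. Lbp, at chr2:158306493-158332852, measured 112.7, 143.2 and 124.5 CPM at 0 h and 301.1, 160.1 and 129.7 CPM at 48 h. The lowest 48 h library lay within the 0 h range. The means were 126.8 ± 15.3 and 197.0 ± 91.4 CPM (log2 fold change 0.64, SE 0.263, edgeR adjusted p = 0.0779). Without 48 h replicate 1 the log2 fold change was 0.19 (edgeR adjusted p = 0.367), and without 48 h replicate 3 it passed the test (0.0152).

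Cd14, a gene of chromosome 18, was the least abundant of the 10 genes, with 15, 23 and 25 counts at 0 h and 145, 44 and 21 counts at 48 h. These were 0.511, 0.741 and 0.753 CPM at 0 h and 4.31, 1.23 and 0.60 CPM at 48 h. The lowest 48 h library lay within the 0 h range and the other 2 above it. The log2 fold change was 1.6 (SE 0.614, edgeR adjusted p = 0.0603), and without 48 h replicate 1 it was 0.45 (edgeR adjusted p = 0.423). Without 48 h replicate 3 the test was passed (edgeR adjusted p = 0.00814). The log2 ratio of Cd14 counts to the summed counts of 12 Kupffer and macrophage markers was -7.36, -7.41 and -7.39 at 0 h and -4.88, -6.96 and -7.82 at 48 h (log2 difference 0.83, exact permutation p = 0.6). It was -0.01 without 48 h replicate 1. That library held 127.5 CPM of these markers against 155.1 and 138.9 CPM in the other 48 h libraries. The part of macrophage RNA in the Cd14 level was not tested.

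Of 11 genes of lipopolysaccharide recognition, 10 were tested and 0 were called by edgeR, by DESeq2 with its size factors or by limma-voom. Other edgeR settings made calls, with 3 higher by scaling with library size only, 1 higher with no filter on low counts, and 1 higher and 1 lower without 0 h replicate 1. At an unadjusted p under 0.05, 1 of them (Irak1, a kinase of this pathway, named after its value was seen) was higher in edgeR. Tlr4 was at 0.722 ± 0.38 and 0.798 ± 0.194 CPM (log2 fold change 0.14, edgeR adjusted p = 0.805), with a sign that reversed when 0 h replicate 1 or 48 h replicate 1 was left out. Ly96 was at 2.80 ± 0.0800 and 3.03 ± 0.241 CPM (log2 fold change 0.11, edgeR adjusted p = 0.648).

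Ceruloplasmin carries most of the copper in plasma and oxidizes iron. Cp, at chr3:19957054-20009145, was at 1075.5, 1366.8 and 1344.4 CPM at 0 h and at 2889.3, 1587.0 and 1703.1 CPM at 48 h. The times did not overlap, but replicates 2 and 3 at 48 h stood at only 1.26 and 1.35 times the 0 h mean. Cp rose 1.63-fold, from 1262.2 ± 162.1 to 2059.8 ± 720.7 CPM (log2 fold change 0.71, SE 0.229, edgeR adjusted p = 0.0312). The call was lost without 48 h replicate 1, where the log2 fold change was 0.38 (edgeR adjusted p = 0.088), and without any of the 0 h replicates (0.0545 to 0.117). Of the exon bases of Cp, 1.13% overlap Hps3 on the opposite strand.

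Among 9 other genes of copper handling and ferroxidase function, 4 fell and 5 did not pass the test, with a median log2 fold change of -0.56, beside 19.3% called lower among all genes. One of the 4, Heph, the membrane ferroxidase related to Cp, had 11, 16 and 13 counts at 0 h and 4, 4 and 5 at 48 h, so it entered the test only through the 0 h libraries. Without it 3 of 8 fell, with a median of -0.41, and none of these 3 reached an absolute log2 fold change of 1. Atp7b, the pump that loads copper into ceruloplasmin, fell from 82.3 ± 2.28 to 46.9 ± 2.86 CPM (-0.81). The others were Steap3, a metalloreductase (-0.87), and Ccs, the copper chaperone of superoxide dismutase (-0.56).

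**Figure D3:**
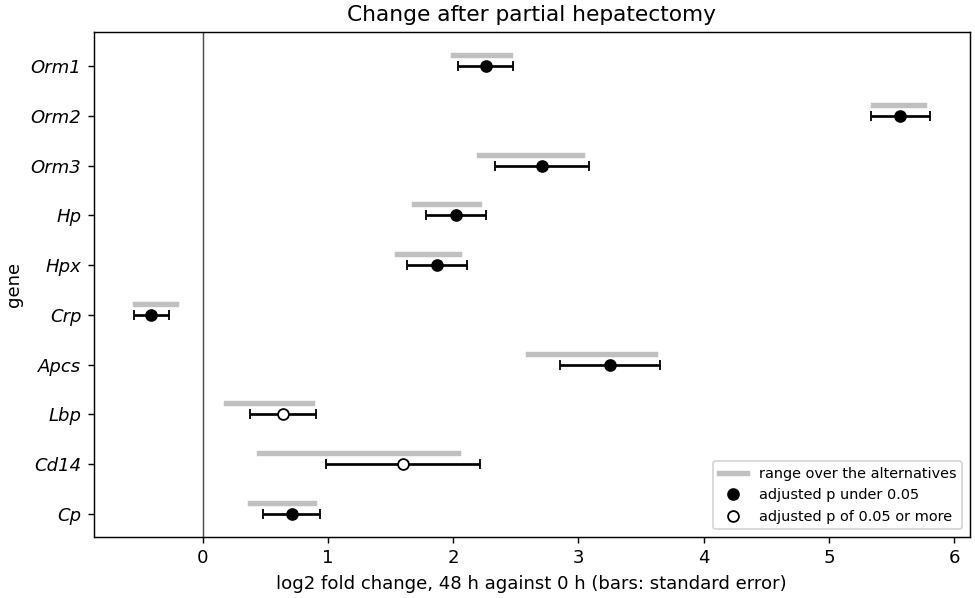
Log2 fold change of 48 h against 0 h for each of the 10 genes (points) with its standard error (black bars) and the range over the alternative settings (grey bars); filled points passed an adjusted p of 0.05. Orm2 stands at 5.57, Orm1, Orm3, Hp, Hpx and Apcs at 1.87 to 3.25, Cp at 0.71 and Crp at -0.41, while Lbp and Cd14 did not pass the test.

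Within the 48 h group, replicate 1 had the highest level of all 10 genes, Crp included, and replicate 3 the lowest of all but Cp, whose lowest was replicate 2. Replicate 1 was the highest 48 h library for 35.1% of all genes tested and for 46% of those called higher. It remained so for all 10 genes with scaling by library size only, by DESeq2 size factors and by the upper quartile. The share of all genes tested was then 20.7%, 36.3% and 30.6%. Relative to the 0 h mean, Orm1 stood at 6.36, 4.45 and 3.54 in replicates 1 to 3 at 48 h, Hp at 5.69, 3.53 and 2.94, Apcs at 16.3, 7.92 and 4.25, and Cp at 2.29, 1.26 and 1.35. The median coefficient of variation of the 10 genes was 11.4% at 0 h and 35.3% at 48 h, while that of 6870 genes whose mean reached 10 CPM at both times was 9.96% and 7.8%.

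The same library was the highest at 48 h for 16 of 18 other positive acute-phase genes. Saa1 stood at 207.6, 101.9 and 96.7 times its 0 h mean in replicates 1 to 3. At 48 h replicate 1 also had the largest sum of hepatocyte markers (106171.6 CPM, against 89229.2 and 85927.0 in replicates 2 and 3). It was the highest for 10 of the 16 markers and the lowest for 4. The sum includes acute-phase genes, among them Fgb, a positive one, at 12524.5, 7731.5 and 6346.9 CPM in replicates 1 to 3. Alb, a negative one, was at 39692.4, 32307.1 and 33210.2 CPM. Replicate 1 also had the lowest share of reads assigned to no gene (24.3%, against 26.7 and 27.9%). Its sums of macrophage, endothelial, stellate, neutrophil and erythroid markers were the lowest of the group, at 127.5, 156.3, 57.3, 0.98 and 18.7 CPM, while those of monocyte and cholangiocyte markers, at 1.90 and 50.1 CPM, lay between the other two. Their part in the levels of the 10 genes was not tested. Without this library 6 of the 10 genes rose, all but Cp of the 7 named above, beside 2706 of all 16488 genes tested. The log2 fold changes were then 2.0 for Orm1, 5.35 for Orm2, 2.21 for Orm3, 1.69 for Hp, 1.55 for Hpx and 2.6 for Apcs.

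**Figure D4:**
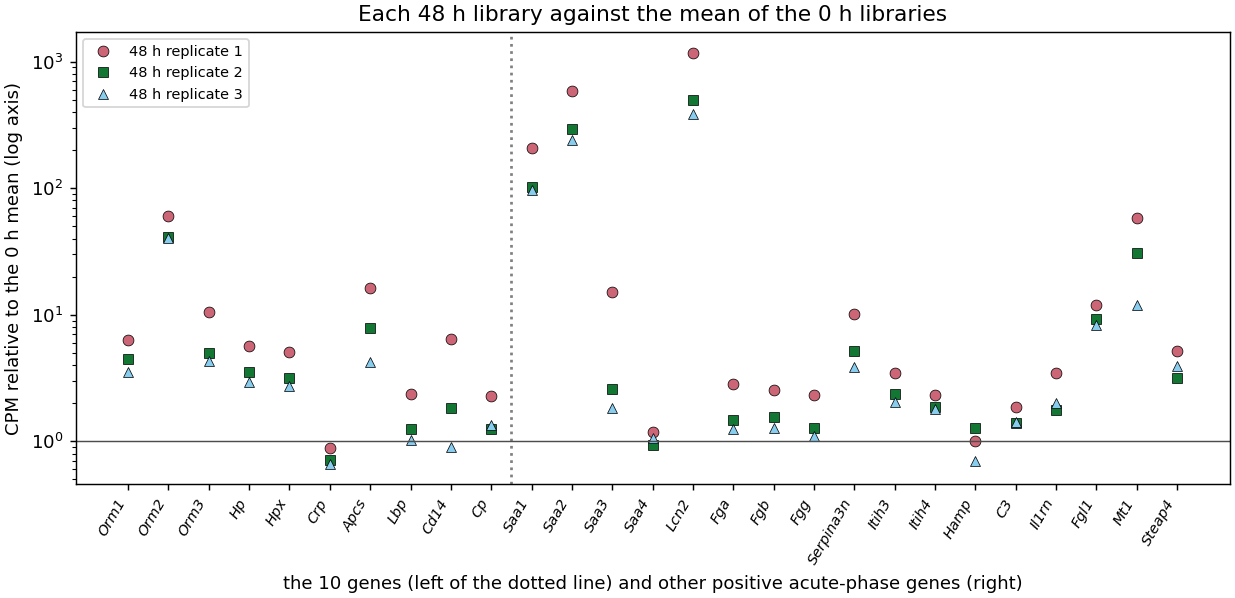
CPM in each 48 h library divided by the mean of the 0 h libraries, on a log axis, for the 10 genes (left of the dotted line) and 17 other positive acute-phase genes (right); Mt2 is left out because it had at most 1 count in any 0 h library. Replicate 1 (circles) is the highest of all 10 genes at left and of all genes at right but Hamp.

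Levels were compared between genes as CPM per kilobase of exon. At 0 h the order was Hpx (1523.1), Hp (646.3), Orm1 (589.4), Cp (131.9), Crp (94.7), Apcs (35.6), Lbp (26.3), Orm2 (21.8), Orm3 (2.30) and Cd14 (0.386). The libraries of Hp and Orm1 overlapped, as did those of Lbp and Orm2, and all other neighbours were apart. At 48 h Hpx (5562.0) was again first, followed by Orm1 (2819.4), Hp (2621.7), Orm2 (1033.4), Apcs (338.0), Cp (215.3), Crp (71.5), Lbp (40.8), Orm3 (15.2) and Cd14 (1.18). There Orm1 and Hp overlapped, as did Apcs and Cp. Among all genes tested, Hpx ranked 30 at 0 h and 5 at 48 h on this scale, and Orm2 moved from rank 1475 to rank 43. The merged exons of Crp, 3444 bases, include a noncoding transcript, and its coding transcript has 1695 bases. Over the coding transcript alone Crp would stand at 192.5 CPM per kilobase at 0 h and at 145.3 at 48 h. The other genes, Cp among them, were kept on their merged exons, so the place of Crp in the order depends on the length used. Together the 10 genes took 0.518 ± 0.0475% of all gene counts at 0 h and 1.95 ± 0.570% at 48 h.

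The pathway that controls these genes was described with lists chosen for their known roles. Of 18 signalling genes 5 rose, 2 fell and 11 did not pass the test, with a median log2 fold change of 0.13. These shares lie near those of all genes tested, 21.4% higher and 19.3% lower. With scaling by library size only 8 rose and 2 fell, with the upper quartile 4 and 5, and with TMM factors from protein-coding genes 5 and 4. With a limit of 1 on the absolute log2 fold change 3 rose and 1 fell. Socs3, an inhibitor of interleukin-6 signalling that STAT3 itself induces, rose from 11.1 ± 1.46 to 43.4 ± 8.89 CPM (log2 fold change 1.97, SE 0.162, edgeR adjusted p = 7.8e-06). Stat3 (0.82), Il6ra, the interleukin-6 receptor (0.51), Cebpd (1.10) and Il1r1, the interleukin-1 receptor (1.45), rose too. Il1rap, the co-receptor of Il1r1, fell from 150.9 ± 15.7 to 64.3 ± 12.0 CPM (-1.23), and Cebpa fell as well (-0.97). Il6st, which encodes gp130, and Cebpb did not pass the test, at -0.24 (edgeR adjusted p = 0.148) and 0.20 (0.409).

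Of the 18 other positive acute-phase genes 15 rose and 3 did not pass the test, with a median log2 fold change of 1.71, beside 21.4% called higher among all genes. One of the 15, the metallothionein Mt2, had 1, 0 and 1 counts at 0 h and 58, 80 and 36 at 48 h, so it entered the test only through the 48 h libraries. Without it 14 of 17 rose, with a median of 1.39. Lcn2, a siderophore-binding lipocalin, rose from 3.83 ± 0.555 to 2625.2 ± 1635.7 CPM (log2 fold change 9.42). The serum amyloids Saa2 (8.55) and Saa1 (7.08), which are close paralogs, followed. Orm2, at 5.57, stood below these 3 genes, and no fold is given for Mt2 because of its counts at 0 h. Of 10 negative acute-phase genes 7 fell and 3 did not pass the test, with a median of -0.78, beside 19.3% called lower among all genes. With the limit of 1 on the absolute log2 fold change 3 fell. The falls included Apoa2, an apolipoprotein (-1.40), Serpina6, the corticosteroid carrier (-1.38), Ttr, the thyroxine carrier (-1.32), and Alb, albumin (-0.86). On the log2 scale the fall of Crp, at -0.41, was smaller than these 4, which were named for the largest called falls of the list. The 3 that did not pass the test were Gc at -0.43, Trf at -0.01 and Ahsg at 0.18.

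Markers of other cells were measured beside the 10 genes. Their counts of calls stand beside 21.4% called higher and 19.3% called lower among all genes tested. Of 12 Kupffer and macrophage markers 4 rose (Marco, Cd5l, Cd68 and Cd163, at 3.19, 0.78, 0.70 and 0.64), and their sum was 86.5 to 129.1 CPM at 0 h and 127.5 to 155.1 CPM at 48 h. With a limit of 1 on the absolute log2 fold change 1 rose, and without 0 h replicate 1, 3 rose and 1 fell. Of 10 endothelial markers 9 fell, with sums of 217.5 to 343.9 and 156.3 to 174.9 CPM. The count was 5 without 0 h replicate 3, 6 without 0 h replicate 2, 48 h replicate 1 or 48 h replicate 2, 6 with scaling by library size only and 3 with the limit on the fold change. Of 8 stellate cell markers Col1a1 rose (2.30) and Reln fell (-0.82), with sums of 66.1 to 107.6 and 57.3 to 68.8 CPM (4 fell without 0 h replicate 1), and of 3 cholangiocyte markers tested, of 8, Spp1 rose (1.51, a call lost without 0 h replicate 2 or 3 or 48 h replicate 3), with sums of 35.0 to 63.2 and 46.9 to 58.6 CPM. Of 8 monocyte markers only Plac8 was tested, and its rise (0.79) lost its call in 8 of 16 alternatives, with sums of 1.19 to 1.45 and 1.77 to 2.07 CPM. Of 10 neutrophil markers Mpo, Ltf and Retnlg had no count in any library, and the only one tested, Csf3r, fell (-1.15), with sums of 1.13 to 1.23 and 0.98 to 1.54 CPM. Elane, at 5, 1 and 3 counts at 0 h and 13, 16 and 8 at 48 h, and Camp, at 2, 3 and 0 and at 6, 19 and 26 counts, lay the other way, and with no filter on low counts 2 neutrophil markers were called higher. Of 7 erythroid markers only Alas2 was tested and fell (-1.34), and it made up nearly all of their sums of 56.0 to 86.7 and 18.7 to 40.4 CPM, since the 4 globin genes had 0 to 6 counts per library. Of the 16 hepatocyte markers 6 fell, 1 rose (Fgb, also a positive acute-phase gene, at 0.84) and 9 did not pass the test. Among those that fell, Alb, Apoa1 and Ttr are also on the list of negative acute-phase genes. With the limit on the fold change 3 fell and 0 rose, and 0 rose without 0 h replicate 1 or 3. The falls included G6pc (-3.14), Cyp2e1 (-1.71), Ttr (-1.32) and Serpina1c (-0.99). The part of these shifts in the levels of the 10 genes was not tested.

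For each of the genes but Cd14, the protein-coding gene whose log2 CPM followed it most closely over the 6 libraries was sought among 7383 genes by Pearson correlation, which takes no account of the size of a change. These were Vangl1 for Orm1 (r = 0.999), Myh9 for Orm2 (0.999), Copb2 for Orm3 (0.997), Mrtfa for both Hp and Hpx (0.999), Abca3 for Crp (0.993), Il18bp for Apcs (0.998), Fgg for Lbp (0.988) and Wtap for Cp (0.989). The log2 fold change was 0.71 for Vangl1 against 2.26 for Orm1, 0.91 for Myh9 against 5.57 for Orm2 and 0.35 for Copb2 against 2.71 for Orm3. It was 0.92 for Mrtfa against 2.02 for Hp and 1.87 for Hpx, 0.87 for Il18bp against 3.25 for Apcs and 0.24 for Wtap against 0.71 for Cp. The sizes lay close for Fgg (0.65) and Lbp (0.64), and for Abca3 (-0.31) and Crp (-0.41). The number of genes with r over 0.95 was 405 to 884 for Orm1, Orm2, Orm3, Hp, Hpx and Apcs, 36 for Crp, 28 for Cp and 13 for Lbp. The 6 libraries fall into 2 groups, and the values are a description without a test.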

How the data were processed

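The deposited values are raw counts of reads per gene, 1 file per library, with no normalization. The submitters' processing notes name FastQC 0.11.5, Trim Galore 0.6.4, STAR 2.6, HTSeq 0.12.4, DESeq2 and the build mm10, without roles; how the authors treated strand and shared reads when they counted is not given in the sources used here. Closing lines for reads assigned to no gene (24.3 to 32.7%) and ambiguous reads (4.27 to 5.29%) were left out. Samples were grouped by their labels. Identifiers were matched to GENCODE M21, which also gave coordinates and exon lengths. The labels give the age as 10 to 12 weeks and the study's methods give a slightly younger one.

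A gene entered the test if 3 or more libraries had 10 or more counts of it (17037 genes). The test was edgeR's quasi-likelihood test (edgeR 4.0.16, R 4.3.3) with TMM, time as the only term and Benjamini-Hochberg adjustment. The standard error is the log2 fold change divided by the square root of F. The script was tested on simulated data. Ratios within libraries, with 0.5 counts added, were compared by two-sided exact permutation tests. Sequence identity was computed with Biopython 1.88. Same-group libraries differed by far more than counting noise. The 10 genes and the other lists (signalling, other positive and negative acute-phase genes, lipopolysaccharide recognition, haem handling, copper, and markers of hepatocytes and other cells) were chosen with earlier results of these data known. Named from each list were the 4 called genes of largest absolute log2 fold change and a few fixed genes of known role (Il6ra, Il6st, Stat3, Socs3, Tlr4, Ly96, Lrp1, Hmox1, Atp7b and Cebpb). For each of the 10, the most correlated gene was named as well, except for Cd14, where it is not reported here. Cebpa, Irak1, Fgb, Apoa1, Trf, Ahsg, Gc and the markers Mpo, Ltf, Retnlg, Elane and Camp were named after their values were seen. DESeq2 1.42.0, limma-voom (limma 3.58.1), other scalings and filters, a fold threshold, a replicate block and leaving out each library were the alternatives.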

Additional observations from a re-analysis of the deposited data

How the results depend on the processing

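The calls for Orm1, Orm2, Orm3, Hp, Hpx and Apcs kept their direction and an adjusted p under 0.05 in all 16 alternatives. Cp lost its call in 7 and Crp in 8, among them a limit of 1 on the absolute log2 fold change, while Lbp passed in 4 of 16 and Cd14 in 4 of the 15 that could test it (for both, DESeq2, scaling by library size only, no filter on low counts, and without 48 h replicate 3). The number of the 10 genes that rose lay between 6 and 9. The number that fell was 0 with scaling by library size only, 0 with the limit on the fold change and 0 with the replicate number as a replicate block, and 0 to 1 when each library was left out in turn. With the replicate block 6 of the 10 genes rose, beside 3237 of all 17037 genes tested, and Cp and Crp lost their calls (edgeR adjusted p = 0.0685 and 0.0727). Between libraries of the same number, departures from the group mean correlated at 0.033, -0.067 and -0.138, so the numbers were not taken to pair them. The log2 fold change of Tlr4 lay between -0.17 and 0.59 and the log2 difference of Cd14 to macrophage markers between -0.01 and 1.46 when each library was left out. Over all genes tested, 3638 were called higher and 3288 lower, 5308 and 2110 with scaling by library size only, and 1651 and 1353 with the limit on the fold change. The cause of these changes was not tested. Cd14 and Orm3 had the fewest counts, and were the 2 genes with fewer than 100 counts in every 0 h library.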
